A study of Mus musculus with 20 samples.

Results

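The genes of the heme biosynthesis enzymes were followed across 20 mouse skin tissues. The 8 genes Alas1, Alas2, Alad, Uros, Urod, Cpox, Ppox and Fech were taken by gene symbol from the 22090 genes of the count table, and all 8 were found and passed the filter on low counts in each comparison. The tissues were 8 normal skin (NS), 8 actinic keratosis (AK, the precancerous lesion) and 4 cutaneous squamous cell carcinoma (cSCC) samples. All mice were females of the Hairless SKH-1 strain, and the labels give an age of 7 months. In the study's methods 7 months is the age of the mice as divided into groups, before the weeks of irradiation. The tissues were taken at the end of that time, from older mice. The strain is immunocompetent and is one that forms skin tumors under ultraviolet light. By the study's description, 4 unirradiated mice gave 1 NS each, and each of 4 mice given repeated simulated solar ultraviolet radiation gave 1 NS, 2 AK and 1 cSCC. Which mouse a tissue came from, and which NS had been irradiated, the labels do not say. The 8 AK therefore stand for 4 mice, tissues of 1 mouse entered the tests as if independent, and p-values may be too small.

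Heme is an iron-holding ring that carries oxygen in haemoglobin and electrons in cytochromes. Its synthesis starts in the mitochondrion, where aminolevulinic acid synthase joins glycine to succinyl-CoA. Alas1 encodes the form of that enzyme used in most cells, and X-linked Alas2 the form of developing red cells. Alad, Uros and Urod act on the way to a porphyrin ring in the cytosol, and Cpox, Ppox and Fech finish it in the mitochondrion, Fech by inserting iron. In skin the pathway is known through light. Inherited loss of several of these enzymes lets porphyrins collect and makes skin sensitive to sunlight, and aminolevulinic acid painted on AK is turned into protoporphyrin, the substrate of ferrochelatase, for photodynamic treatment.

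The control regions of the start enzymes differ in letters, and they are shown because the contrast between Alas1 and Alas2 runs through the results. The stretches are from RefSeq on GRCm38.p6, the Alas2 and Cpox ones covering bases -250 to -51 from an annotated start. Capitals mark a match to the NRF1 motif in Alas1, which is the letters shown with any base at the fifth position, and a match to AGATAA or TGATAA, motifs of the GATA factors of red cells, on the reverse strand in Alas2 and Cpox.
Alas1, chr9:106247906-106247935, minus strand: cgcacccaagGCGCATGCGCggcggtcact
Alas2, chrX:150547167-150547366, plus strand: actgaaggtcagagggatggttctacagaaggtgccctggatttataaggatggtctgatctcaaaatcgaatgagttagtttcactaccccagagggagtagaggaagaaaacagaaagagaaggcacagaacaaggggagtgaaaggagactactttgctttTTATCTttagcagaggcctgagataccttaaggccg
Cpox, chr16:58669958-58670157, plus strand: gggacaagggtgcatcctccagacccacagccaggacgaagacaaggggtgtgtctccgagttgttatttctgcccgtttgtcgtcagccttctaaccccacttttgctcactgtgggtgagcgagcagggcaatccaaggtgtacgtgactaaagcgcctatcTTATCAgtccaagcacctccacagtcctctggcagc
On both strands, the NRF1 motif was found in 2.25% and AGATAA or TGATAA in 14.1% of 32544 promoter windows of the same length. These matches describe letters and not bound sites. The Alas2 and Cpox windows each held 1 GATA match, as did 1 of 2 Uros windows, and Alas2 was called higher in cSCC while Cpox and Uros were not called. Of 2 Alas1 windows, 1 held the NRF1 motif.

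Total counts were 1624325 to 6295575 in NS, 867219 to 14055206 in AK and 775750 to 7095102 in cSCC. Levels are given as CPM, counts scaled to the library size with TMM factors, which discount a few very abundant genes. Keratinocyte markers were present in every tissue, at a summed 9270 to 23427 CPM in NS and 10134 to 22442 CPM in AK. The cSCC sums were 18317, 16965, 5227 and 3715 CPM in replicates 18 to 21, lowest in replicates 20 and 21. Their mean log2(CPM + 1) was 8.73, 6.64, 7.02 and 5.09 in these replicates, against at least 9.6 in NS. Of the 8 keratinocyte markers, 4 were called lower in cSCC than in NS. The 4 endothelial markers summed to 20.8 to 70 CPM in NS and 24 to 64.1 CPM in AK. They summed to 39.6, 73.8, 141 and 422 CPM in cSCC replicates 18 to 21, highest in replicates 20 and 21, which held the lung and heart genes given below. In cSCC 3 of 4 were called higher than in NS and 4 of 4 higher than in AK, and 3 of 6 skeletal muscle genes were called lower in cSCC than in NS. The part of these cells in the results was not tested. Some cSCC libraries stood apart. In cSCC replicate 18 the 4 haemoglobin genes took 46.8% of counts (95% Wilson interval 46.8% to 46.9%), against 0.0917% to 14.3% in NS and AK. The library labelled cSCC replicate 21 held heart muscle genes at a summed 56271 CPM, against at most 217 CPM in NS, and cSCC replicate 20 held lung genes at 35513 CPM, against at most 51.7 CPM in NS and AK. Where a call of a named gene was lost without 1 cSCC library, the value without it is given. In bulk tissue, fewer cells of a type and less RNA per cell cannot be told apart.

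In AK, Alad and Ppox were called lower and none of the 8 genes was called higher. In each cSCC comparison 5 of 8 were called higher and none lower. Genes that were not called also had sizeable log2 fold changes, 1.92 for Alas2 and 1.46 for Fech in AK vs. NS. Cpox had -0.62 in cSCC vs. NS and -0.69 in cSCC vs. AK. A gene was called at an adjusted p under 0.05 with a fold change above 1.5 or below 0.67. In AK vs. NS 2 of 8 were called lower, beside 2.39% of 11677 genes called lower, 2.26% called higher and 4.65% called either way. In cSCC vs. NS Alas1, Alas2, Alad, Urod and Fech were called higher, beside 11.7% of 12097 genes called higher, 7.65% called lower and 19.3% called either way. In cSCC vs. AK Alas1, Alas2, Alad, Urod and Ppox were called higher, beside 16% of 12032 genes called higher, 8.34% called lower and 24.4% called either way. The median log2 fold change of the 8 genes was -0.07 in AK vs. NS, 1.20 in cSCC vs. NS and 2.13 in cSCC vs. AK, and that of all genes tested was -0.04, 0.15 and 0.17. Scaling by library size alone moved the median of all genes to -0.13, -0.19 and -0.11. These comparisons share the NS, AK or cSCC samples, so their calls are not independent. The calls of Alas2 in cSCC are also not independent of its choice, since it was set apart beforehand as high in cSCC replicate 18. The 2 calls of AK vs. NS were 0 without NS replicate 1, 0 with all 20 samples in 1 fit and 0 with the haemoglobin level as a covariate (4, 4 and 2 genes at an unadjusted p under 0.05 in edgeR). The 5 calls of cSCC vs. NS were 3 without cSCC replicate 21 and 0 without replicates 18 and 21 together (5 at an unadjusted p under 0.05), and the 5 of cSCC vs. AK were 2 and 3. In the latter fit 1 of the 3 was Cpox, called lower.

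**Figure D1:**
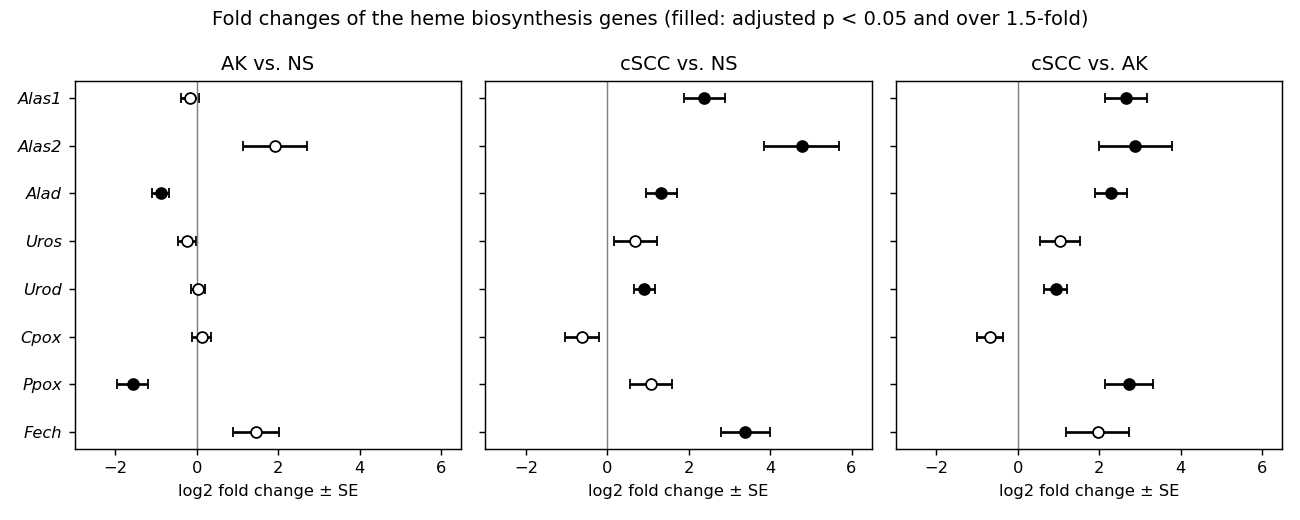
Log2 fold change (horizontal axis) of the 8 heme biosynthesis genes in 3 comparisons, with bars of 1 SE and filled points for called genes. In AK vs. NS the filled points are Alad and Ppox, left of 0, and in both cSCC comparisons all 5 filled points lie to the right.

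**Figure D2:**
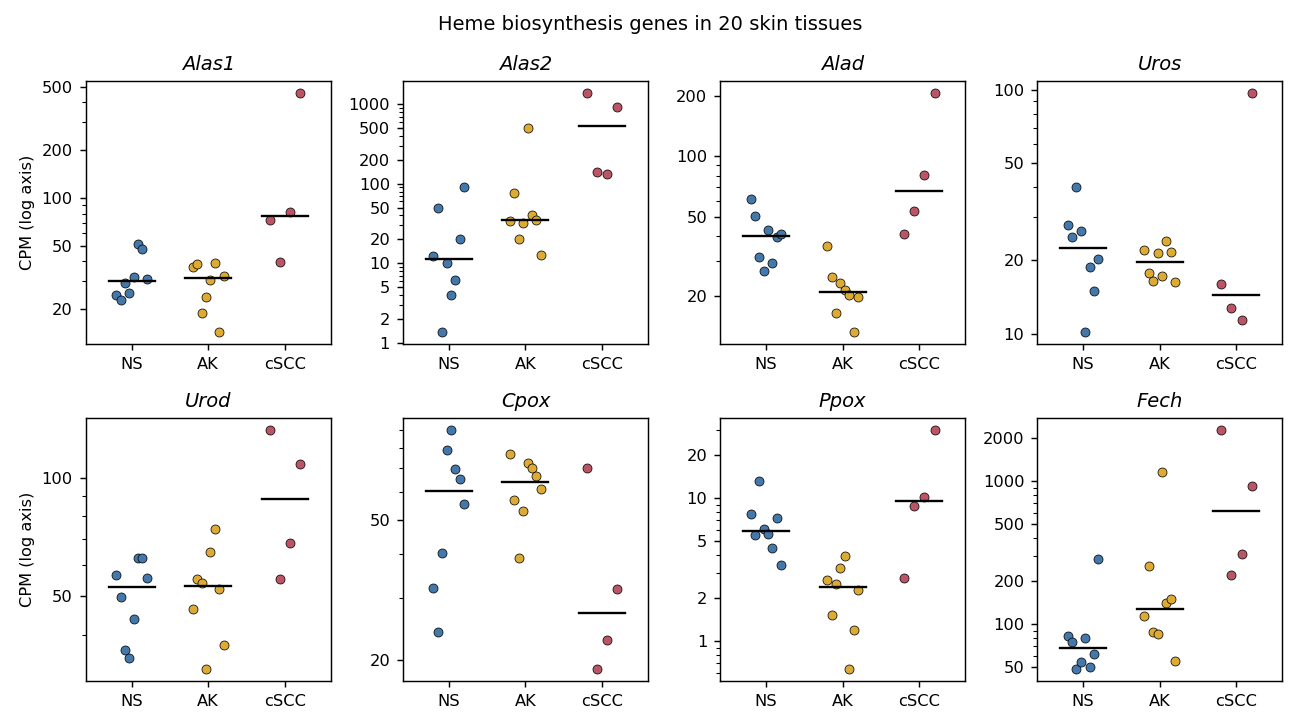
CPM of each heme biosynthesis gene (log axis) in the 20 tissues, with 1 point per tissue, left to right in replicate order, and a bar at the group median. Alas2 in cSCC lies above every NS tissue, Alas1 and Alad in cSCC lie above every AK tissue, and single cSCC points stand far above the rest for Alas1 and Uros.

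Alas1, the start enzyme of most cells, was level between NS and AK and higher in cSCC. Its CPM ran from 22.9 to 51.8 in NS (median 30.1) and from 14.4 to 39.3 in AK (median 31.3). The cSCC tissues held 72.9, 39.5, 81.9 and 457 CPM in replicates 18 to 21. All 4 were above every AK tissue, replicate 19 only just, while replicate 19 lay within the NS range. The log2 fold change was -0.17 ± 0.22 (SE, n = 8 and 8, adjusted p = 0.682) in AK vs. NS, 2.38 ± 0.50 (n = 4 and 8, adjusted p = 0.0069) in cSCC vs. NS and 2.65 ± 0.52 (n = 4 and 8, adjusted p = 0.00397) in cSCC vs. AK. Beside the cSCC vs. AK comparison, 3.33% of genes tested had every cSCC value above every AK value. Replicate 21, which also held the heart genes, set the size. Without it the mean of the other 3 was 64.8 ± 22.3 CPM (SD, n = 3), against 33.1 ± 10.9 in NS, and the log2 fold changes were 1.01 (adjusted p = 0.0423) vs. NS and 1.13 (adjusted p = 0.0243) vs. AK. Without replicates 20 and 21 they were 0.78 (adjusted p = 0.16) and 0.97 (adjusted p = 0.0811).

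Alas2, the red cell form, had the widest fold range of the 8 genes from the lowest to the highest tissue in NS and in AK. NS ranged from 1.36 to 90.2 CPM with a median of 11.3. AK ranged from 12.8 to 501 CPM with a median of 34.6, the highest being replicate 14 and the next replicate 11 at 75.7. cSCC held 1389, 139, 133 and 928 CPM in replicates 18 to 21, all above every NS tissue, while AK replicate 14 lay among them. The log2 fold change was 1.92 ± 0.79 (adjusted p = 0.144) in AK vs. NS, 4.78 ± 0.91 (27.4-fold, adjusted p = 0.0044) in cSCC vs. NS and 2.89 ± 0.90 (7.41-fold, adjusted p = 0.0312) in cSCC vs. AK. Beside the cSCC vs. NS comparison, 2.7% of genes tested had every cSCC value above every NS value. Alas2 was set apart beforehand as the gene that follows blood and is high in cSCC replicate 18. Its calls with that replicate are therefore not independent of that choice. The cSCC vs. NS call held without replicate 18 (4.03, adjusted p = 0.00727) and without replicate 21 (4.52, adjusted p = 0.00643), but not without both (2.48, adjusted p = 0.0818). The cSCC vs. AK call was lost without replicate 18 (2.06, adjusted p = 0.109), without replicate 21 (2.55, adjusted p = 0.0741) and without any 1 of AK replicates 10, 11, 12, 13, 15, 16 and 17. Apex2, a DNA repair gene on the opposite strand, shares 311 exon bases with Alas2 and was also called higher in cSCC, at 12.8 ± 3.91 CPM (SD, n = 4) vs. 3.32 ± 1.52 in NS (n = 8). The strand used in counting is not given in the sources used here.

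The isozymes were set against each other per kilobase of exon. The share of Alas2 in the summed Alas1 and Alas2 level was 48.9% ± 28.4 in NS (SD, n = 8), 76.4% ± 13.8 in AK (n = 8) and 88.2% ± 7.62 in cSCC (n = 4). NS spread from 10.7% to 88.2%, whereas in AK the share ran from 50.5% to 97.7% and in cSCC from 80.7% to 98%. All 3 ranges overlapped. By this measure the start enzyme transcript was mostly Alas1 in some normal tissues and mostly Alas2 in others. The exon lengths, 6174 bases for Alas1 and 2403 for Alas2, are unions over all annotated transcripts and raise the share of Alas2. In CPM, Alas2 was above Alas1 in NS replicates 2 and 9. Alas2 was below Alas1 in CPM in NS replicates 1, 5 and 8 and AK replicates 10 and 17, though mostly Alas2 per kilobase.

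Fech, which inserts the iron, was high in the tissues where Alas2 was high. It ran from 48.5 to 83.1 CPM in 7 NS tissues and reached 286 CPM in NS replicate 9, the NS tissue with the most haemoglobin. In AK it ran from 55.1 to 256 CPM in 7 tissues and reached 1156 CPM in replicate 14, the AK tissue with the most haemoglobin. cSCC held 2293, 221, 311 and 927 CPM in replicates 18 to 21. The highest tissue of each group was the same for Fech as for Alas2, and the ranges of the 3 groups overlapped. Fech had a log2 fold change of 1.46 ± 0.57 (adjusted p = 0.124) in AK vs. NS, 3.39 ± 0.60 (10.5-fold, adjusted p = 0.00295) in cSCC vs. NS and 1.96 ± 0.77 (adjusted p = 0.0758) in cSCC vs. AK. Single libraries moved the calls of AK vs. NS and cSCC vs. AK. Without NS replicate 9 Fech was called higher in AK (1.97, adjusted p = 0.0374), without AK replicate 14 it was called higher in cSCC than in AK (2.98, adjusted p = 0.00547), while the cSCC vs. NS call held without each cSCC replicate in turn and was lost without replicates 18 and 21 together (1.54, adjusted p = 0.0684).

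Red cell transcripts were summarised as the mean log2(CPM + 1) of 15 genes, 4 haemoglobin genes and 11 genes of red cell precursors such as Klf1, with Alas2 left out. The haemoglobin genes carried most of it, since the 11 precursor genes together held 1.12 to 264 CPM and at most 2 of them passed the filter on low counts in a comparison. Summed haemoglobin was 804 to 52171 CPM in NS, 9988 to 155104 in AK and 12600 to 920532 in cSCC, and the 4 genes were called higher in cSCC than in NS. Across the 20 tissues Alas2 had a Pearson's r of 0.872 and a Spearman's rho of 0.765 with this score, given without a test because Alas2 was set apart beforehand as the blood gene. Within NS its r was 0.793 (n = 8) and within AK 0.959 (n = 8), or 0.616 without NS replicate 9 and 0.798 without AK replicate 14.

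Of the other 7 genes, Fech had the highest correlation with the red cell score. Its r was 0.908 (permutation p = 1e-05, the smallest that 100000 permutations can give, adjusted over 7 tests 7e-05) and its rho 0.845 (permutation p = 2e-05, adjusted 0.00014). Ranked by r among 12849 genes, Fech was number 11 and Alas2 number 15. Genes of the score itself that passed the filter, such as Hbb-bs, were not left out of this ranking. Without the 2 tissues farthest from the median score, cSCC replicate 18 and NS replicate 4, r was 0.874. Within AK it was 0.966 (exact permutation p = 0.00186, adjusted 0.013), falling to 0.845 without AK replicate 14, and within NS 0.837 (exact permutation p = 0.0146, adjusted 0.102), falling to 0.518 without NS replicate 9. Urod, at an r of 0.763 and rho of 0.597 (permutation p = 0.00023 and 0.00649, adjusted 0.000805 and 0.0227), came next, but its r was 0.489 within NS and 0.522 within AK (exact permutation p = 0.225 and 0.19, adjusted 0.394 and 0.667) and 0.55 without the 2 farthest tissues. The remaining 5 had r of 0.457 for Alas1, 0.208 for Alad, 0.132 for Cpox, -0.06 for Uros and -0.11 for Ppox, with adjusted permutation p from 0.136 to 0.799, and rho from -0.29 to 0.341 with adjusted permutation p from 0.33 to 0.896.

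**Figure D3:**
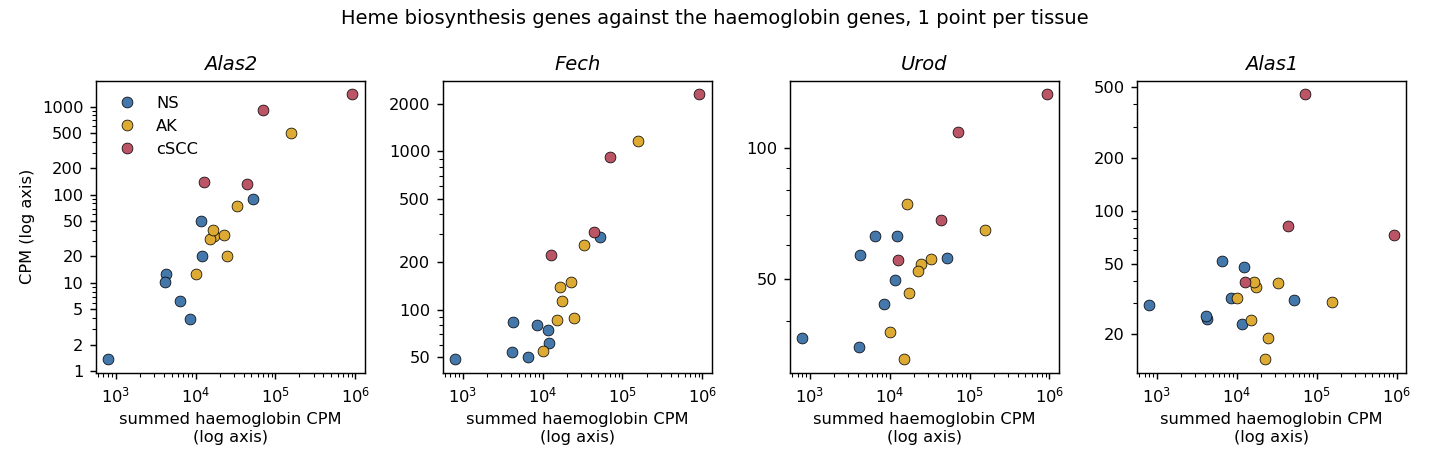
CPM of Alas2, Fech, Urod and Alas1 (vertical log axes) against the summed CPM of 4 haemoglobin genes (horizontal log axis), with 1 point per tissue coloured by group. Alas2 and Fech climb with haemoglobin across the 20 tissues, though not at each step within a group. In cSCC, replicate 20 holds more haemoglobin than replicate 19 but Alas2 is at 133 and 139 CPM. Alas1 follows more loosely (r = 0.457 with the red cell score), and its highest point is cSCC replicate 21 at 457 CPM.

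Per unit of haemoglobin the cSCC tissues were not alike. Alas2 stood at 0.46 to 4.29 CPM per 1000 CPM of haemoglobin in NS and at 0.812 to 3.23 in AK. In cSCC it stood at 1.51 in replicate 18, 11 in replicate 19, 3 in replicate 20 and 13.1 in replicate 21. Replicates 19 and 21 thus held more Alas2 for their haemoglobin than any NS or AK tissue, and replicate 18, the tissue with the most Alas2, held an amount within the NS and AK ranges. With the log2 haemoglobin level as a covariate, the log2 fold change of Alas2 was -0.26 (adjusted p = 0.794) in AK vs. NS and 2.40 (adjusted p = 0.0592) in cSCC vs. NS. In cSCC vs. AK it was 2.06 for Alas2 (adjusted p = 0.0151), which was called, and 0.91 for Fech (adjusted p = 0.0981). The Alas2 call is not independent of its choice as the gene that follows blood and is high in replicate 18. The covariate was added after seeing the data. For Fech the AK vs. NS and cSCC vs. NS values were -0.09 (adjusted p = 0.945) and 1.5 (adjusted p = 0.0741). In those fits 2 of 11677 genes were called in AK vs. NS, 728 of 12097 in cSCC vs. NS and 2302 of 12032 in cSCC vs. AK. The median log2 fold change of the 4 haemoglobin genes themselves was 1.54 in AK vs. NS, where none was called, and 4.40 in cSCC vs. NS.

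Alad, which joins aminolevulinic acid into the first ring, fell in AK and rose in cSCC. NS ranged from 26.8 to 61.3 CPM (median 40.1), AK from 13.2 to 35.8 CPM (median 20.8), and cSCC held 41, 53.2, 80.8 and 207 CPM in replicates 18 to 21. Every AK tissue except replicate 10 lay below the lowest NS tissue, and all 4 cSCC tissues lay above every AK tissue. None of the 8 genes had every AK value below every NS value, as 0.128% of genes tested did. Alad had a log2 fold change of -0.88 ± 0.21 (0.544-fold, adjusted p = 0.0264) in AK vs. NS, 1.33 ± 0.38 (adjusted p = 0.0254) in cSCC vs. NS and 2.29 ± 0.39 (4.90-fold, adjusted p = 0.00248) in cSCC vs. AK. The cSCC vs. AK call held without replicate 21 (1.41, adjusted p = 0.00634) and the cSCC vs. NS call did not (0.58, adjusted p = 0.203). The AK vs. NS call was lost without NS replicate 1 (-0.76, adjusted p = 0.0526), AK replicate 13 (-0.88, adjusted p = 0.0514) or AK replicate 15 (-0.86, adjusted p = 0.0505).

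Uros, which closes the ring, passed the test in none of the 3 comparisons, and its sign in cSCC came from 1 library. NS ranged from 10.1 to 40 CPM (median 22.6) and AK from 16.2 to 24 CPM (median 19.6). cSCC held 16, 12.7, 11.4 and 97.3 CPM in replicates 18 to 21, so that 3 tissues lay at the low end of the NS range and 1 above every other tissue. The log2 fold change in cSCC vs. NS was 0.69 ± 0.53 (adjusted p = 0.385), and without replicate 21 it was -0.73 (adjusted p = 0.232). In cSCC vs. AK it was 1.03 ± 0.49 (adjusted p = 0.137), and -0.54 (adjusted p = 0.225) without replicate 21. The genes whose level over the 20 tissues was most like that of Uros were Sbk1, Ank1 and Cav3, the caveolin of striated muscle, at r of 0.922, 0.895 and 0.869. Their rho was lower, at 0.748, 0.758 and 0.680.

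Urod, the last cytosolic enzyme, ran from 34.9 to 62.7 CPM in NS (median 52.8) and from 32.7 to 74.3 CPM in AK (median 53.2). cSCC held 133, 55.4, 68.3 and 109 CPM in replicates 18 to 21, with replicates 18 and 21 above every NS and AK tissue and the other two within the AK range. Urod had a log2 fold change of 0.03 ± 0.18 (adjusted p = 0.932) in AK vs. NS, 0.91 ± 0.27 (adjusted p = 0.0282) in cSCC vs. NS and 0.93 ± 0.28 (adjusted p = 0.0252) in cSCC vs. AK. Without replicate 18 these 2 were 0.63 (adjusted p = 0.112) and 0.56 (adjusted p = 0.142), without replicate 21 they were 0.80 (adjusted p = 0.0702) and 0.72 (adjusted p = 0.102), and without both 0.29 and 0.28. The cSCC vs. NS call was also lost without NS replicate 4, 5 or 6, and the cSCC vs. AK call without AK replicate 12.

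Cpox, the first of the late mitochondrial enzymes, was the 1 gene of the 8 with a negative log2 fold change in both cSCC comparisons, but it passed the test in neither. NS ranged from 24 to 90.1 CPM (median 60.4) and AK from 39.1 to 77.2 CPM (median 63.9). cSCC held 70.2, 18.9, 22.8 and 31.8 CPM in replicates 18 to 21. The last 3 lay below every AK tissue, and replicate 18 lay within the AK range. Cpox had a log2 fold change of -0.62 ± 0.41 (adjusted p = 0.314) in cSCC vs. NS and -0.69 ± 0.32 (adjusted p = 0.125) in cSCC vs. AK. Without replicate 18, the tissue with the most haemoglobin, Cpox was called lower in both, at -1.20 (adjusted p = 0.0479) and -1.35 (adjusted p = 0.003), and scaling by library size alone also called it lower in both, at -1.14 (adjusted p = 0.0408) and -1.17 (adjusted p = 0.00993).

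Ppox, which makes protoporphyrin, had the lowest median per kilobase of exon of the 8 in each group and fell in AK. NS ranged from 3.4 to 13.2 CPM (median 5.85), AK from 0.639 to 3.92 CPM (median 2.4), and cSCC held 2.78, 8.79, 10.2 and 30.1 CPM in replicates 18 to 21. Every AK tissue except replicate 14 lay below the lowest NS tissue. These levels rest on few reads, 10 to 44 counts in NS, 2 to 36 in AK and 4 to 182 in cSCC. AK replicates 12 and 16 held 2 counts each, under the 3 counts below which a level was taken as not detectable. Ppox had a log2 fold change of -1.57 ± 0.38 (0.336-fold, adjusted p = 0.0283) in AK vs. NS, 1.08 ± 0.52 (adjusted p = 0.16) in cSCC vs. NS and 2.73 ± 0.59 (6.62-fold, adjusted p = 0.00602) in cSCC vs. AK. The last was lost without replicate 21 (1.69, adjusted p = 0.0797), and the AK vs. NS call was lost without NS replicate 1 (-1.53, adjusted p = 0.0514), NS replicate 4 (-1.35, adjusted p = 0.068) or AK replicate 16 (-1.5, adjusted p = 0.0538). B4galt3, a galactosyltransferase gene on the opposite strand that shares 791 exon bases with Ppox, held 0 to 15 counts in NS and AK and up to 114 in cSCC.

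**Figure D4:**
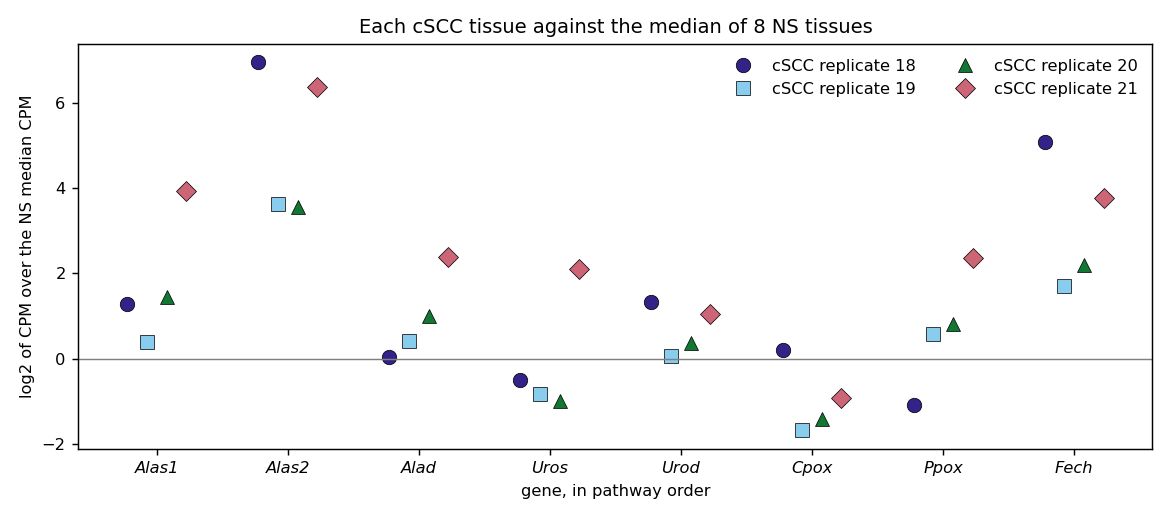
Log2 of the CPM of each cSCC tissue over the median CPM of the 8 NS tissues (vertical axis) for 8 heme biosynthesis genes in pathway order (horizontal axis). Replicate 18 (circles) is highest for Alas2, Urod, Cpox and Fech, and replicate 21 (diamonds) is highest for the other 4.

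The 4 cSCC tissues reached their levels in different ways. In replicate 18 Alas2 was 123 times and Fech 33.6 times the NS median, while Alad was 1.02 times and Ppox 0.475 times it. In replicate 21 Alas1 was 15.2 times, Alad 5.18 times, Ppox 5.14 times and Uros 4.31 times the NS median, with Alas2 at 82 times and Fech at 13.6 times. Replicates 19 and 20, with the least haemoglobin of the 4, still held Alas2 at 12.3 and 11.8 times and Fech at 3.24 and 4.55 times, and both had Cpox and Uros below the NS median. The log2 ratio of Fech to Cpox, which work 1 step apart around Ppox, was 0.55 ± 1.10 in NS (SD, n = 8), 1.32 ± 1.26 in AK (n = 8) and 4.30 ± 0.75 in cSCC (n = 4). It ran from 3.55 to 5.03 in cSCC, above the highest NS tissue at 2.37, and AK replicate 14 lay inside that range at 4.00.

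Compared between genes per kilobase of annotated exon, Alad and Urod led in NS, with medians of 21.4 and 20.4 CPM per kb. Cpox followed at 9.07, Uros at 6.31, Fech at 4.93, Alas1 at 4.88, Alas2 at 4.71 and Ppox at 1.3 CPM per kb. Each neighbouring pair in this order had overlapping ranges over the 8 NS tissues. In cSCC Alas2 led with a median of 222 CPM per kb and Fech followed at 44.7, ahead of Alad at 35.8 and Urod at 34.1, Alas1 at 12.5, Cpox at 4.09, Uros at 4.02 and Ppox at 2.11. The exon lengths are unions over all annotated transcripts, which for Fech come to 13838 bases and lower its level per kb.

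Over the 20 tissues the gene most like Alas2 was Fech (r = 0.936), followed by AK157302 (0.933), Ube2l6 (0.919), Isca1 (0.916) and the beta globin gene Hbb-bs (0.911). The genes most like Fech were AK157302 (0.964), Bpgm, which makes the red cell metabolite bisphosphoglycerate (0.939), and Alas2. The genes most like Alas1 were Ubl4, Mta1 and Sod2 (0.911 to 0.941), those most like Alad were Sirt2, Farsa and Tln1 (0.895 to 0.909), and those most like Urod were Mrps18a, Mrpl28 and Park7 (0.829 to 0.852). For Cpox they were Fam46b, Endou and Rars2 (0.843 to 0.858), and for Ppox Pitpnm2, Mroh1 and Tln1 (0.862 to 0.870). Spearman's rho for these genes was 0.851 to 0.919 for Alas2 and 0.905 to 0.973 for Fech. It was 0.671 to 0.774 for Alas1, 0.841 to 0.860 for Alad and 0.612 to 0.806 for Urod. For Cpox it was 0.669 to 0.814 and for Ppox 0.841 to 0.880. Among the members themselves, Alad had r of 0.814 with Ppox, 0.783 with Alas1 and -0.54 with Cpox, and Alas2 had r of 0.753 with Urod and -0.21 with Cpox. These values share libraries and depth and are given as a description of the 20 tissues.

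Around the enzymes, 68 genes of heme supply, transport, breakdown, regulation and use were read in 6 lists. In AK vs. NS 4 of 60 tested were called higher and 1 lower, beside 2.26% and 2.39% of all genes tested. In cSCC vs. NS 16 of 62 were called higher and 4 lower, beside 11.7% and 7.65% of all genes, and in cSCC vs. AK 16 of 63 higher and 3 lower, beside 16% and 8.34%. Scaling by library size alone turned the splits in cSCC into 6 higher and 6 lower vs. NS and 6 and 5 vs. AK, and without cSCC replicate 21 they were 9 and 5 vs. NS and 9 and 9 vs. AK. Their median log2 fold changes were 0.11, 0.42 and 0.45, beside -0.04, 0.15 and 0.17 for all genes tested.

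The AK calls included genes of porphyrin export and heme breakdown. Abcg2, a pump that carries porphyrins out of cells, rose from 75.5 ± 37 CPM in NS to 185 ± 45.3 CPM in AK (SD, n = 8 each), a log2 fold change of 1.29 ± 0.28 (adjusted p = 0.0189). Its lowest AK tissue, at 124 CPM, was above its highest NS tissue, at 114 CPM, and 0.394% of genes tested had every AK value above every NS value. In cSCC it spanned 16.3 to 206 CPM and was not called. Bach1, a heme-sensing repressor of Hmox1, rose from 44.6 ± 10.5 to 81.3 ± 14.7 CPM (0.85 ± 0.16, adjusted p = 0.0151), and Hmox1, which opens the heme ring, fell from 86.6 ± 19.3 to 55.6 ± 14.4 CPM (-0.64 ± 0.17, adjusted p = 0.0341). The heme enzyme Ptgs2 rose from 2.47 ± 2.79 to 33.8 ± 34.6 CPM (3.69 ± 0.67, adjusted p = 0.0151). Its NS levels rest on 0 to 29 counts, with 0 in replicates 4 and 6. AK replicate 10, at 5.31 CPM, lay below NS replicate 8, at 8.83 CPM. The calls of Abcg2 and Bach1 held when each tissue was left out in turn. They were lost with all 20 samples in 1 fit (adjusted p = 0.126 for Abcg2 and 0.0787 for Bach1) and with the haemoglobin level as a covariate (0.83 with adjusted p = 0.214 and 0.79 with adjusted p = 0.154), as were those of Hmox1 and, with the covariate, Ptgs2. The call of Hmox1 was also lost without any 1 of 10 tissues.

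In cSCC vs. NS, 7 of the 17 supply and transport genes tested were called higher and 1 lower, beside 11.7% and 7.65% of all genes tested. Slc25a39, a mitochondrial glutathione carrier needed for heme synthesis, rose from 15.7 ± 4.52 CPM in NS to 124 ± 107 CPM in cSCC (SD, n = 8 and 4), a log2 fold change of 3.05 ± 0.43 (adjusted p = 0.00132), and held 73.2 CPM without its highest tissue. Slc25a37, the mitochondrial iron carrier of red cell precursors, was called higher (2.71 ± 0.77, adjusted p = 0.0248) but not without cSCC replicate 18 (0.99, adjusted p = 0.311). Slc48a1, a heme transporter of lysosomes, rose to 83.3 ± 57.8 from 28.2 ± 5.83 CPM (adjusted p = 0.00624). Tspo, Suclg1, Suclg2 and Shmt2 were also called higher, with log2 fold changes from 1.16 to 1.71, but each call was lost without 1 cSCC library. Without replicate 21 Suclg1 stood at 0.27 (adjusted p = 0.479), Suclg2 at 0.57 (adjusted p = 0.196) and Shmt2 at 0.67 (adjusted p = 0.238). Tspo stood at 1.12 (adjusted p = 0.0608) without replicate 18 and 1.00 (adjusted p = 0.0993) without replicate 19. The Suclg1 call was also lost without any 1 NS tissue, that of Shmt2 without NS replicate 1, 4, 5 or 9 and that of Tspo without NS replicate 4, 5 or 6. The heme chaperone Pgrmc2 fell from 57.7 ± 15.3 to 21.8 ± 11.1 CPM (adjusted p = 0.0136), a call that held without each cSCC tissue in turn.

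Slc15a1, a peptide transporter that also takes up aminolevulinic acid, fell in cSCC. It held 66.7 ± 35.1 CPM in NS, 35.7 ± 14.6 CPM in AK and 5.84 ± 6.25 CPM in cSCC, where every tissue lay below every NS and AK tissue. The cSCC levels rest on few reads, with 16, 2, 10 and 0 counts in replicates 18 to 21. Replicates 19 and 21 were under the 3 counts below which a level was taken as not detectable. The log2 fold change was -3.71 ± 0.93 (adjusted p = 0.0147) in cSCC vs. NS and -2.77 ± 0.83 (adjusted p = 0.0264) in cSCC vs. AK, the latter lost without cSCC replicate 19 (-2.37, adjusted p = 0.0614). Beside these, 5.73% and 6.84% of genes tested had every cSCC value below every NS or AK value.

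The iron handling genes called higher included Fth1 and Ncoa4 in cSCC vs. NS, and Fth1, Cp, Iscu and Nfs1 in cSCC vs. AK. Each of these calls was lost without 1 cSCC library. Fth1, the ferritin heavy chain, rose from 1645 ± 818 CPM in NS to 4494 ± 2716 CPM in cSCC (adjusted p = 0.036), but without replicate 20, the tissue with the lung genes, its log2 fold change was 0.98 (adjusted p = 0.153) vs. NS and 0.93 (adjusted p = 0.0967) vs. AK. Ncoa4, the ferritin receptor of autophagy, stood at 0.59 (adjusted p = 0.137) vs. NS without replicate 18. Without replicate 21 the values vs. AK were -0.03 for Nfs1 (adjusted p = 0.956), 0.41 for Iscu (adjusted p = 0.382) and 0.91 for Cp (adjusted p = 0.244), and Iscu was also lost without replicate 18 (0.91, adjusted p = 0.0796). The Fth1 and Ncoa4 calls vs. NS were also lost without any 1 of 6 and 5 NS tissues, the Nfs1 and Iscu calls without any 1 of 8 and 6 AK tissues, and those of Fth1 and Cp vs. AK without AK replicate 12.

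Of the regulators, Foxo1 and Bach1 had their lowest means in cSCC. Foxo1 held 52.6 ± 8.85 CPM in NS, 43.6 ± 7.29 CPM in AK and 17.3 ± 8.36 CPM in cSCC, called lower vs. NS (adjusted p = 0.00476) and vs. AK (adjusted p = 0.0114), and Bach1 at 23.4 ± 11.2 CPM was called lower vs. AK (-1.71 ± 0.29, adjusted p = 0.00248). Nfe2l2, Nr1d1, whose protein binds heme, and Eif2ak1, the heme-sensing kinase of red cell precursors, were called higher vs. NS, with log2 fold changes of 1.11, 2.62 and 1.11, and Nr1d1 and Eif2ak1 vs. AK. Without replicate 21 the cSCC mean of Nr1d1 was 10.6 in place of 33.9 CPM and its call vs. NS was lost (0.89, adjusted p = 0.289), as were those of Eif2ak1 vs. NS (0.86, adjusted p = 0.0506) and vs. AK (0.71, adjusted p = 0.0714). The Nfe2l2 call was lost without replicate 19 (0.59, adjusted p = 0.145).

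Of the heme protein genes, Cyc1, Sdhc and Ptgs2 were called higher in cSCC vs. NS and Cyc1, Sdhc and Cat vs. AK, while Ptgs1 was called lower vs. NS. Cyc1 and Sdhc, which encode parts of the respiratory chain, held 606 ± 932 and 307 ± 448 CPM in cSCC, and 141 and 83.1 CPM without replicate 21, against 69.6 ± 6.36 and 52 ± 18.7 CPM in NS. Without replicate 21 the calls of Sdhc vs. NS (0.73, adjusted p = 0.121), Cat vs. AK (0.34, adjusted p = 0.38) and Ptgs1 vs. NS (-1.06, adjusted p = 0.0667) were lost, and that of Ptgs1 also without replicate 20 (-1.19, adjusted p = 0.0593). Blvrb, a biliverdin reductase, was called higher in cSCC vs. AK (66 ± 30.9 vs. 35.8 ± 10.5 CPM, adjusted p = 0.0421), a call lost without cSCC replicate 18 (0.65, adjusted p = 0.19), 19 (0.95, adjusted p = 0.0752) or 20 (0.82, adjusted p = 0.104) or any 1 of 6 AK tissues, and none of the 4 breakdown genes was called in cSCC vs. NS.

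**Figure D5:**
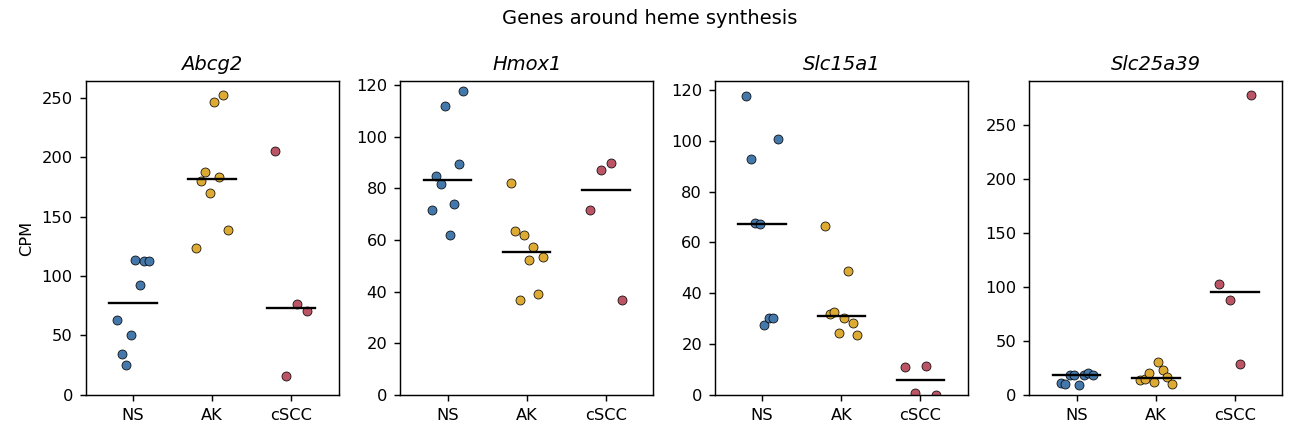
CPM (linear axes from 0) of the porphyrin exporter Abcg2, the heme oxygenase Hmox1, the peptide transporter Slc15a1 and the mitochondrial carrier Slc25a39 in the 20 tissues, with 1 point per tissue and a bar at the group median. Abcg2 in AK lies above every NS tissue, Slc15a1 in cSCC lies below every NS and AK tissue, and Slc25a39 in cSCC lies above every NS tissue.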

How the data were processed

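RNA-seq was carried out on 8 NS, 8 AK and 4 cSCC tissues, grouped by label. The authors deposited raw counts per gene symbol, not normalized. The submitters' processing notes name Trimmomatic 0.36, HISAT2 2.0.5, featureCounts 1.5.2 and the builds hg19 and mm9, while the study's methods name StringTie and GRCm38, and the strand used in counting is not given in the sources used here. The labels name a HiSeq instrument and the methods a NextSeq one. Older symbols were matched through RefSeq synonyms.

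CPM were taken from these counts after TMM scaling of the 20 libraries. Comparisons used only the samples of the 2 groups compared, genes kept by filterByExpr and the quasi-likelihood test of edgeR 4.0.16 (limma 3.58.1, R 4.3.3), with Benjamini-Hochberg adjustment over all genes tested, a threshold of 0.05 and fold limits of 1.5 and 0.67. Each SE was the absolute log2 fold change over the root of the F statistic. Alternatives were DESeq2 1.42.0, limma voom with sample quality weights, upper quartile factors, library size alone, scaling without haemoglobin genes, other gene filters, no adjustment, no fold limit, all 20 samples in 1 fit and leaving out each sample. A haemoglobin covariate and leaving out cSCC replicates 18 and 21 together were added after seeing the data. Correlations used log2(CPM + 1), two-sided tests and 100000 permutations, or all 40320 orderings of 8 samples, with Python 3.11.15 and scipy 1.17.1. The scripts were tested on simulated data. No pair of libraries of 1 group agreed within sampling noise (62 pairs, smallest chi-square per degree of freedom 9.54).

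The 8 genes, the lists and the rule for naming genes (all 8 genes, every pathway gene called, and the 5 genes most like Alas2 and 3 most like each other gene) were chosen with earlier results of these data known. Of 18 red cell and haemoglobin symbols listed, Ahsp, Hbb-b1 and Hbb-b2 were not matched. Gene positions and exon lengths are from GENCODE M21 on GRCm38. A level under 3 counts, 0.213 to 3.87 CPM depending on the library, was taken as not detectable. Intervals cover counting error only. The labels do not say that tissues of a group came from separate mice. The Fech promoter and protein sequences were not used here. Some genes of the lists are withheld, and their results are not reported here.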

Additional observations from a re-analysis of the deposited data

Results flagged for a closer look

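A total of 6 values stood far from the rest of their group by Dixon's 95% criterion, out of 24 groups tested, of which chance flags about 1 in 20. Alas1 at 457 CPM and Uros at 97.3 CPM stood apart in cSCC replicate 21, whose heart muscle genes summed to 56271 CPM, and the part of that tissue in these values was not tested. Alas2 at 501 CPM and Fech at 1156 CPM stood apart in AK replicate 14, whose haemoglobin genes summed to 155104 CPM, the most among AK. Fech at 286 CPM stood apart in NS replicate 9, whose haemoglobin genes summed to 52171 CPM, the most among NS. Ppox at 13.2 CPM stood apart in NS replicate 4, whose haemoglobin genes summed to 804 CPM, the least of the 20 tissues.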

How the results depend on the processing

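Of 611 recomputed log2 fold changes of the 8 genes, 517 kept their direction and side of the threshold. Of the heme biosynthesis genes, 2 were called in AK vs. NS, 4 without adjustment, 1 with at least 10 counts in every sample, and 0 with all 20 samples in 1 fit (4 at an unadjusted p under 0.05) or with the haemoglobin covariate (2). In cSCC vs. NS 5 were called, 2 by limma voom, 2 without cSCC 20 and 21, 0 without cSCC 18 and 21 (5 at an unadjusted p under 0.05) and 0 with the covariate (6). In cSCC vs. AK 5 were called, 2 by limma voom, 1 without cSCC 20 and 21 and 3 without cSCC 18 and 21. Leaving out single samples gave 0 to 3, 3 to 5 and 2 to 6.

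Of the other pathway genes, 5 were called in AK vs. NS, 10 without adjustment, 1 with all 20 samples and 0 with the covariate (10 at an unadjusted p under 0.05). In cSCC vs. NS 20 were called, 13 by limma voom, 12 by library size alone, 11 without cSCC 20 and 21, 12 without cSCC 18 and 21 and 5 with the covariate. In cSCC vs. AK 19 were called, 11 by limma voom, 11 by library size alone and 12 without cSCC 20 and 21. Leaving out single samples gave 3 to 6, 14 to 23 and 14 to 24. Library size alone also moved the split of the pathway calls from 16 higher and 4 lower to 6 and 6 in cSCC vs. NS, and from 16 and 3 to 6 and 5 in cSCC vs. AK. The r of Alas2 with the red cell score was 0.872, 0.811 without the 2 farthest samples, 0.793 within NS and 0.959 within AK.

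Some log2 fold changes that were not called changed sign. In AK vs. NS the covariate gave -0.26 for Alas2, -0.087 for Fech, 0.070 for Uros and -0.19 for Urod, and Urod was also -0.060 by library size alone, -0.029 by upper quartile factors, -0.058 with at least 10 counts in every sample, and from -0.058 to 0.11 when single samples were left out, negative without NS 4, NS 5, AK 14 or AK 15. In cSCC vs. NS Ppox was -0.14 without cSCC 20 and 21, and Uros was -0.34 by limma voom, -0.66 without cSCC 20 and 21, -0.91 without cSCC 18 and 21 and -0.73 to 0.96 when single samples were left out, negative without cSCC 21. In cSCC vs. AK Uros was -0.13, -0.39 and -0.66 under the first 3 of these settings and -0.54 to 1.31 when single samples were left out, again negative without cSCC 21. The cause was not tested. No paired analysis was possible because the groups share no replicate numbers. With 4 cSCC tissues, of which 3 hold much blood, heart or lung RNA, the sign of Uros in cSCC rests on 1 library. The levels of Ppox rest on as few as 2 counts, in AK replicates 12 and 16.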
